A study of Mus musculus with 9 samples.

Results

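The comparison described here is that of midbrain from Gpr161 conditional knockout (cKO) fetuses with midbrain from floxed control fetuses, 6 of the 9 libraries of the study, read over all named genes. The floxed controls carried 2 floxed Gpr161 alleles and no Cre (Gpr161f/f). The cKO carried the same alleles together with the Wnt1-Cre transgene (spelled Gpt161f/f;Wnt1-Cre in the labels), with 3 libraries in each group. All fetuses were taken at E13.5 on a C57BL/6 background, and poly-A RNA of the dissected midbrain was sequenced. The 3 Cre control libraries (Gpr161f/+;Wnt1-Cre) entered the fit to estimate the spread between libraries and were not compared. The difference is therefore that of losing both Gpr161 alleles in Cre-expressing cells and of carrying Wnt1-Cre together, which cannot be told apart in these 6 libraries.

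Gpr161 encodes an orphan G protein-coupled receptor found on primary cilia and acts as a brake on the Sonic hedgehog (Shh) pathway. The pathway ends in the Gli transcription factors, whose balance of activator and repressor forms sets the level of its target genes, and cAMP and protein kinase A tip that balance toward the repressor. In the embryonic midbrain, Shh from the floor plate patterns the ventral side, while the isthmic organizer at the border with the hindbrain sends out Fgf8 and Wnt1, which hold its progenitors in growth. Wnt1-Cre recombines in the dorsal neural tube, the midbrain neuroepithelium and the neural crest, so only a share of the cells in dissected tissue loses the gene, and the line is known for raised Wnt1 in the midbrain.

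All values are log2 values normalized between libraries by the authors, and differences between groups are log2 fold changes, cKO minus floxed control. The midbrain markers En1, En2 and Otx2 were at 10.50 to 10.97, 12.09 to 12.46 and 11.28 to 11.47 over the 6 libraries and were not called between the groups, except that En1 passed without cKO replicate 1 (0.22, adjusted p = 0.0435). Of the 9 midbrain and isthmus identity genes they belong to, 1 was called higher (2 without cKO replicate 1) and 4 lower, and these are described with the isthmus. Gpr161 itself was at 11.80, 11.74 and 11.78 in the floxed controls and at 11.74, 11.95 and 11.94 in the cKO. The groups overlapped, and the difference, 0.11 on the log2 scale (adjusted p = 0.223 by limma), was not a decrease, although it passed the test as an increase without cKO replicate 1 (0.18, adjusted p = 0.0471) and once GC content and length were regressed out (0.16, adjusted p = 0.0302). A single value per gene covers all its exons, so the deletion could not be read from the table, and cKO below stands for the libraries so labelled. Wnt1 was at 9.22, 9.08 and 9.25 in the floxed controls and at 10.57, 10.80 and 10.59 in the cKO, which gave the smallest p of all genes (log2 fold change 1.46, adjusted p = 1.72e-05 by limma). H2afv, the gene at which this Wnt1-Cre transgene is catalogued as inserted, was at 12.09, 12.07 and 12.09 in the floxed controls and at 11.75, 11.68 and 11.70 in the cKO (log2 fold change -0.38, adjusted p = 0.00251 by limma).

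Within a group, libraries differed from each other by an SD of 0.104 to 0.151 over the 14029 genes tested, and between groups by 0.229 to 0.318. A few libraries stood apart. Floxed control replicate 2 was low in the Y-linked gene Kdm5d, at 8.01 against 9.65 to 10.39 in the other 5 libraries, floxed control replicate 1 was low in choroid plexus genes, and floxed control replicate 3 was low in mesenchyme and smooth muscle genes. The values without them are given beside the results they touch.

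Genes were counted as differentially expressed (DEGs) where the adjusted p was below 0.05 and the change exceeded 1.5-fold, which 410 did (2.92% of the genes tested). Of these, 188 were higher in the cKO (1.34%) and 222 were lower (1.58%). With 1 library left out, the count was lowest without cKO replicate 1, at 290, where 162 genes were higher and 128 lower, and highest without floxed control replicate 2, at 543. Without the limit on the fold, 38.3% of the genes passed, 2738 of them higher (19.5%) and 2642 lower (18.8%). A call on a single gene was thus common, and the list counts below are to be read against these shares. These calls were 5380 in all and fewer in every fit with 1 library left out. They were 3965, 4821 and 3746 without floxed control replicates 1, 2 and 3, and 3606, 4214 and 4474 without cKO replicates 1, 2 and 3. List counts from those fits stand beside these lower totals. In the main fit some lists lay near the 19.5% called higher over all genes. These were the Eph and ephrin genes (22.7%), common reference genes (22.2%) and cholesterol biosynthesis genes (26.1%). The ventral midbrain factors and the D cyclin list, at 28.6% each, were not far above it. The median log2 fold change of all genes tested was 0.011. The groups did not overlap for 29.9% of the genes with all cKO libraries above and for 27.3% with all of them below.

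The higher DEGs lay at lower levels in the floxed controls and more of them reached large folds. The median log2 value in the floxed controls was 8.58 for the higher and 9.84 for the lower DEGs, against 9.73 for all genes tested. A fold change over 2 was reached by 45 higher and 9 lower DEGs, and over 4 by 5 and 0. In GENCODE the longest transcript of the higher DEGs had a median length of 2867 bases and that of the lower DEGs 4620 bases, against 3527 bases for all, and the median GC content was 53.3% and 49.4%, against 49.8%. Once GC content and length were regressed out of every library, 184 genes were higher and 193 lower. The plot of fold change against mean level shows both sides, with the keratins at the top.

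**Figure D1:**
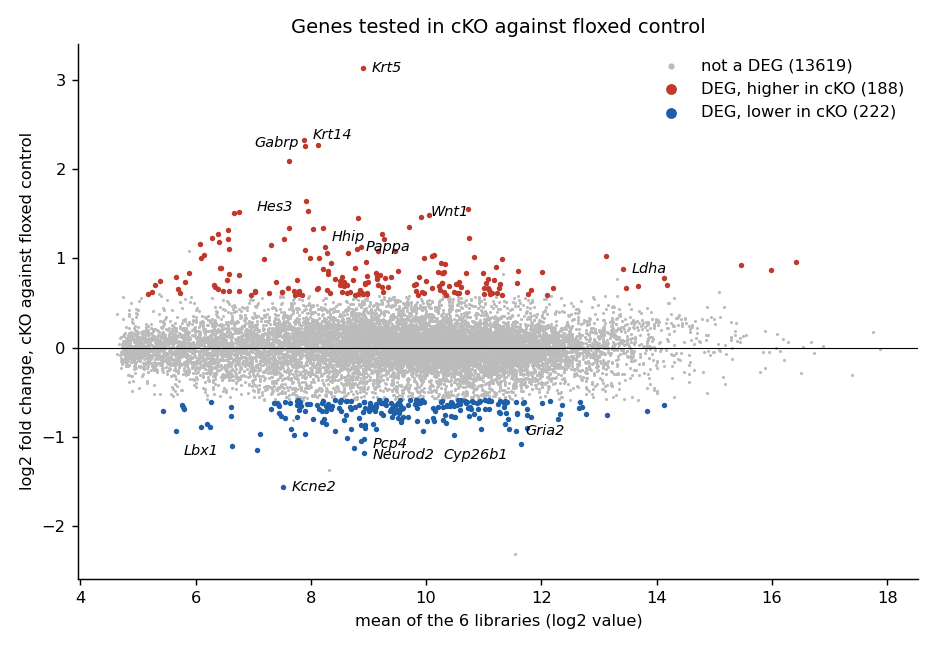
Log2 fold change of each of the 14029 genes (cKO against floxed control, y axis) against the mean log2 value of the 6 libraries (x axis), with the 188 higher DEGs in red, the 222 lower DEGs in blue and other genes in grey. The largest changes upward belong to Krt5, Krt14 and Gabrp, and the lower DEGs lie closer to 0 over the whole range of levels.

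The DEGs with the largest folds were epithelial genes. Among the 10 higher DEGs with the largest fold, 8 belong to a list of surface ectoderm and epidermis genes, and the other 2 are Cxcl14, a chemokine, and Hes3. Of 34 genes of that list tested, 32 were called higher and 0 lower, 26 were DEGs, and the median log2 fold change was 0.94. This list was drawn up after the leading genes had been seen, so its count describes them and adds no evidence. Krt5 (chr15:101707070-101712898 in GRCm38), a keratin of the basal layer of stratified epithelia, was at 7.30, 7.33 and 7.39 in the floxed controls and at 10.54, 10.35 and 10.51 in the cKO. The cKO libraries were close to each other and far above the floxed controls (log2 fold change 3.13, standard error 0.44, adjusted p = 9.61e-04 by limma). Its partner keratin Krt14 was at 6.62, 6.75 and 6.77 in the floxed controls and at 9.15, 8.94 and 9.01 in the cKO (2.33, adjusted p = 0.00147). Krt15, another basal keratin, rose by 2.26 (adjusted p = 0.00181), and Krt7, of simple epithelia, by 2.09 (adjusted p = 0.00221).

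Regulators and junction proteins of epithelia rose with the keratins. Trp63, the transcription factor of stratified epithelia, was at 6.07, 5.97 and 6.03 in the floxed controls and at 7.17, 7.12 and 7.10 in the cKO (1.11, adjusted p = 7.25e-04 by limma), which placed no cKO library near a floxed control. Epcam, an epithelial adhesion molecule, rose by 0.99 (adjusted p = 1.90e-04) and Esrp2, an epithelial splicing regulator, by 1.16 (adjusted p = 2.91e-04). The desmosome and envelope proteins Dsp, Ppl and Evpl rose by 1.65, 1.52 and 0.75, and the tight junction gene Cldn4 by 1.51. Gabrp, the pi subunit of the GABA-A receptor, found mostly outside the brain, was at 6.74, 7.49 and 6.72 in the floxed controls and at 9.52, 9.02 and 9.21 in the cKO (2.27, adjusted p = 0.00210 by limma). Summed on the linear scale, the 36 members of the list in the table made up 0.0201% to 0.0225% of a floxed control library and 0.0399% to 0.0433% of a cKO library, and none of the members was at 0 in every library.

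The standard error of these genes rests also on the 3 Cre control libraries, which share the estimate of the spread. In a fit of the 6 libraries compared alone, that of Krt5 was 0.062 in place of 0.44, with an adjusted p of 2.22e-07 by limma. That of Trp63 was 0.054 in place of 0.15. Krt5 and Trp63 thus varied more among the Cre control libraries than within the groups compared. The smaller errors leave that spread between libraries of the same genotype out. In bulk tissue, fewer or more cells of a type and less or more RNA per cell cannot be told apart, here and for every list below.

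**Figure D2:**
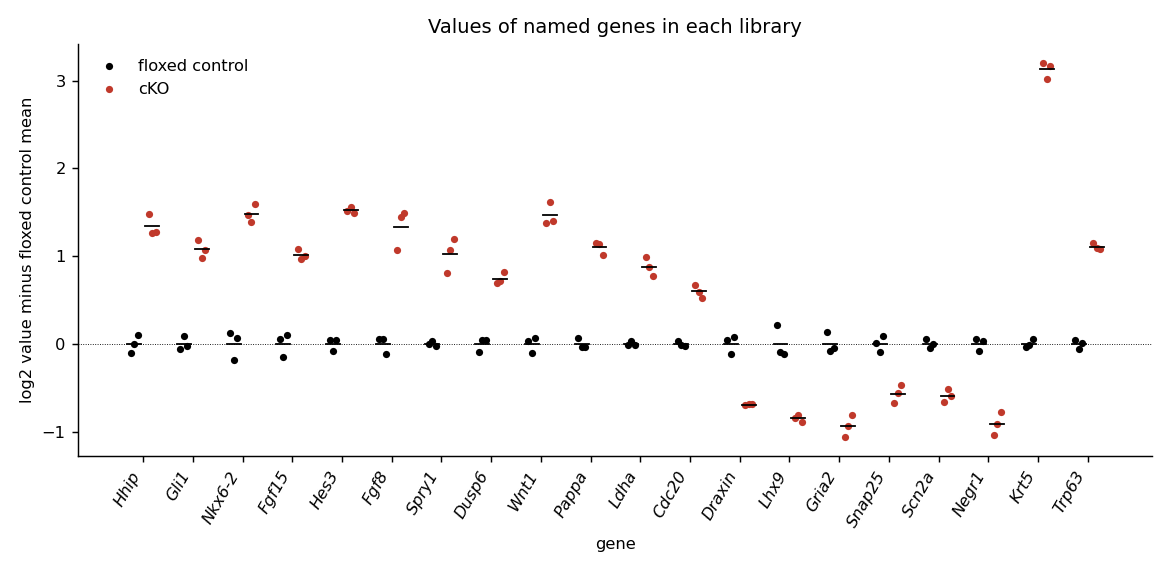
Log2 value of 20 named genes in each library, minus the mean of the floxed controls (y axis), with the floxed controls as black points, the cKO as red points and the means of the 3 libraries as lines. For every gene shown the 3 cKO points lie apart from the 3 floxed control points, above for Hhip through Cdc20 and for Krt5 and Trp63, and below for Draxin through Negr1.

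Targets of Shh were higher in the cKO. Of 14 readout genes of the pathway tested, 8 were called higher and 0 lower, 6 were DEGs, and the median log2 fold change was 0.40. Hhip (chr8:79965851-80058006), which binds and blocks Hedgehog ligand, was at 7.43, 7.54 and 7.64 in the floxed controls and at 9.01, 8.80 and 8.81 in the cKO. Gli1, the transcription factor switched on by the pathway, was at 8.55, 8.71 and 8.59 in the floxed controls and at 9.80, 9.60 and 9.69 in the cKO. In both genes the groups stood far apart, with log2 fold changes of 1.34 and 1.08 and standard errors of 0.080 and 0.065 (adjusted p = 3.17e-05 and 3.17e-05 by limma). Nkx6-2, a homeobox factor of ventral progenitors, was at 9.42, 9.12 and 9.37 in the floxed controls and at 10.77, 10.69 and 10.90 in the cKO (1.48, adjusted p = 1.27e-04), the largest difference of the list.

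Further ventral factors followed in smaller steps. Nkx2-9 rose by 0.90, Nkx2-2 by 0.72 and Nkx6-1 by 0.36 (adjusted p = 3.76e-04, 0.00104 and 0.00209 by limma), and Fgf15, a Shh target in the midbrain, by 1.02 (adjusted p = 1.27e-04). Rab34, a GTPase of cilium assembly, rose by 0.43. Foxa2, the floor plate factor, was at 8.75, 9.10 and 9.01 in the floxed controls and at 9.05, 9.57 and 9.22 in the cKO, where the groups overlapped (log2 fold change 0.32, adjusted p = 0.0995). Its difference was 0.18 without cKO replicate 2. Ccnd1, a D cyclin, did not pass either, at 0.20 (adjusted p = 0.0555), but it passed in the fit of the 6 libraries compared alone (adjusted p = 0.0153) and after quantile normalization (0.0497). Of 14 ventral midbrain factors tested, 4 were called higher and 0 lower, and the 4 were the Nkx genes named here, which are also in the readout list.

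Upstream of the targets the differences were smaller and went both ways. Of 18 genes for Hedgehog ligand, co-receptors and transducers, 6 were called higher and 2 lower (1 without floxed control replicate 1 or 3 or cKO replicate 2 or 3), with 0 DEGs and a median of 0.096. Smo, the receptor that activates the pathway, was at 11.85, 11.90 and 11.88 in the floxed controls and at 12.22, 12.23 and 12.18 in the cKO (0.33, adjusted p = 9.37e-04 by limma). Gli2, the main activator, rose by 0.36 (adjusted p = 0.0102), and Evc and Evc2, which pass the signal on from Smo, rose by 0.36 and 0.25. The co-receptor Cdon fell by 0.26 (adjusted p = 0.0125), and Boc, its relative, was -0.23 on the log2 scale (adjusted p = 0.0479), which lost its call when floxed control replicate 1 or 3 or cKO replicate 2 or 3 was left out (-0.16, -0.24, -0.18 and -0.22). Of 18 cAMP and protein kinase A genes, 0 were called higher and 7 lower (4 without cKO replicate 1), with a median of -0.23. Adcy8, an adenylyl cyclase of neurons, fell by 0.69 (adjusted p = 8.84e-04 by limma) and Prkar2b, a regulatory subunit of the kinase, by 0.34 (adjusted p = 0.00287). Of 35 genes of ciliary transport and the transition zone, 4 were called higher and 4 lower, below the share over all genes in both directions, and the counts were 0 and 2 without floxed control replicate 1, 2 and 1 without floxed control replicate 3, 1 and 2 without cKO replicate 1 or 2, and 1 and 5 without cKO replicate 3.

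Isthmic organizer genes gave the highest median among the signaling lists, 0.56 over 15 genes, of which 9 were called higher and 1 lower. Hes3, a bHLH repressor of the isthmus, was at 7.23, 7.11 and 7.23 in the floxed controls and at 8.71, 8.75 and 8.68 in the cKO. Fgf8, the organizer's main ligand, was at 7.02, 7.02 and 6.84 in the floxed controls and at 8.03, 8.40 and 8.45 in the cKO. Fgf17, its relative, was at 8.86, 8.58 and 8.52 in the floxed controls and at 9.62, 9.90 and 10.10 in the cKO. No values of the 2 groups overlapped in these 3 genes, with log2 fold changes of 1.52, 1.34 and 1.22 (adjusted p = 1.27e-04, 2.17e-04 and 4.71e-04 by limma). Fgf18 rose by 0.50 and the zinc finger factor Sp8 by 0.73. The paired box factors split, as Pax5 and Pax8 rose by 0.56 and 0.60 (adjusted p = 0.00311 and 0.00375) and Pax2 fell by 0.63 (adjusted p = 0.0146, and 0.0517 without cKO replicate 1). Among midbrain identity genes, Pax3 and Pax7, dorsal factors, fell by 0.37 and 0.48 and Meis2, a tectal factor, by 0.57 (adjusted p = 0.0128, 0.00595 and 9.14e-04 by limma), and Pax3 lost its call when floxed control replicate 1 or cKO replicate 2 was left out (-0.30 and -0.32, adjusted p = 0.0517 and 0.0503).

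Feedback and readout genes of Fgf signaling were mostly higher. Of 12 such genes, inhibitors such as the Sprouty and Dusp genes and the Ets effectors included, 9 were called higher (6 to 8 with 1 library left out) and 1 lower (0 in 5 of the 6 fits with a library left out, the exception being that without cKO replicate 3), with a median of 0.28. Dusp6, a phosphatase of Erk, was at 9.53, 9.66 and 9.67 in the floxed controls and at 10.31, 10.34 and 10.44 in the cKO (0.74, adjusted p = 1.21e-04 by limma), and Spry1 was at 9.59, 9.62 and 9.56 in the floxed controls and at 10.40, 10.66 and 10.79 in the cKO (1.02, adjusted p = 1.90e-04). Il17rd and Spry4, also antagonists of Fgf receptors, rose by 0.91 and 0.56. Among 10 ligands and receptors tested, 6 were called higher and 2 lower. The lists overlap, as Fgf8, Fgf17, Fgf18 and the feedback gene Spry1 are also in the isthmic list and Fgf15 in the Shh readout list. Fgf3 was one of the 2, at -0.77 (adjusted p = 0.0295), and passed in only 1 of 6 fits with a library left out, the one without floxed control replicate 2 (-0.69 to -0.90 over the 6 fits), and the count of 2 was 0 without floxed control replicate 1 or 3 or cKO replicate 1, and 1 without cKO replicate 2 or 3.

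In the Wnt pathway, calls among ligands and feedback genes were mostly upward. Of 21 Wnt ligands and Frizzled receptors, 8 were called higher and 2 lower (0 without floxed control replicate 1 or 2 or cKO replicate 1 or 3, and 1 without floxed control replicate 3 or cKO replicate 2). The median was 0.15, and 0.058 without floxed control replicate 1, and the 8 include Wnt1, which is also in the isthmic list. Wnt4 rose by 0.75 and the receptor Fzd9 by 0.49 (adjusted p = 0.00136 and 4.71e-04 by limma). With the mean of the surface ectoderm genes as a covariate, Wnt4 had 0.062 (adjusted p = 0.720 by limma). That covariate differs between the groups, and its part in the difference was not tested. Of 13 feedback and readout genes of beta-catenin, 9 were called higher (5 without floxed control replicate 3) and 0 lower, with 0 DEGs and a median of 0.22. Tnfrsf19 and Apcdd1, both Wnt-responsive membrane proteins, rose by 0.57 and 0.57, and the transcription factor Tcf7 by 0.47 (adjusted p = 1.90e-04, 4.51e-04 and 0.00113 by limma). Axin2, the usual readout, was at 11.08, 11.12 and 11.16 in the floxed controls and at 11.11, 11.09 and 11.04 in the cKO, with overlapping groups (log2 fold change -0.04, adjusted p = 0.442). Of 9 secreted Wnt antagonists, 3 were called higher and 1 lower. With 1 library left out the 3 were 2 to 5, with 2 without floxed control replicate 1 and 5 without floxed control replicate 2. Draxin, a secreted axon guidance protein that antagonizes Wnt, was at 12.14, 11.97 and 12.17 in the floxed controls and at 11.40, 11.40 and 11.40 in the cKO (-0.69, adjusted p = 1.27e-04) and had the smallest p among the genes that fell. Notum, a secreted Wnt deacylase, went the other way, at 6.24, 6.13 and 6.13 in the floxed controls and at 6.65, 7.01 and 7.30 in the cKO (0.82, adjusted p = 0.00153).

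Effectors of Notch, which keep progenitors undifferentiated, rose together. All 7 Hes, Hey and related genes tested were called higher (5 to 7 with 1 library left out), with a median of 0.34, Hes3 among them. Nrarp, a feedback gene of the pathway, rose by 0.42 and Hes1 by 0.29 (adjusted p = 7.02e-04 and 0.00362 by limma), and Hes5 by 0.34 (adjusted p = 0.0140, and 0.0593 without cKO replicate 1). Of 12 receptors, ligands and modifiers, 5 were called higher and 1 lower, with Jag1 at 0.39 (adjusted p = 4.45e-04).

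The insulin-like growth factor and retinoic acid lists held some of the sharpest single differences. Pappa (chr4:65124174-65357509), a protease that frees growth factor from its binding proteins, was at 8.33, 8.23 and 8.22 in the floxed controls and at 9.40, 9.40 and 9.27 in the cKO (1.10, standard error 0.056, adjusted p = 1.72e-05 by limma). Of its 15-gene list 8 were called higher (5 without floxed control replicate 1 or cKO replicate 1 or 2) and 1 lower (2 without cKO replicate 2). The binding proteins Igfbp2 and Igfbp5 rose by 0.58 and 0.52, and Igfbpl1, a related gene of young neurons, fell by 0.44 (adjusted p = 5.23e-04, 0.00183 and 3.13e-04 by limma). Crabp1, which binds retinoic acid in the cytoplasm, was at 10.86, 10.89 and 10.73 in the floxed controls and at 11.79, 11.90 and 11.75 in the cKO (0.99, adjusted p = 1.27e-04). Cyp26b1, which degrades retinoic acid, was at 12.36, 11.93 and 12.28 in the floxed controls and at 11.03, 11.11 and 11.18 in the cKO (-1.08, adjusted p = 0.00110). Crabp2 and the receptor Rarg rose by 0.47 and 0.61, and of 11 genes of the pathway tested 4 were called higher and 2 lower.

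Among 18 genes of the BMP pathway, 7 were called higher and 2 lower, but the 7 were 1 without cKO replicate 1, 2 without floxed control replicate 1 or 3 or cKO replicate 2, and 4 without cKO replicate 3. Id3, an inhibitor of bHLH factors, rose by 0.33 (adjusted p = 0.00221 by limma). The 2 that fell, in every fit with a library left out, were Msx3, a homeobox factor of the dorsal neural tube, by 0.71 and Id4, an inhibitor of bHLH factors, by 0.41 (adjusted p = 0.00577 and 0.00183).

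Genes of the cell cycle moved together, in even steps. All 39 mitosis and spindle genes were called higher, with a median of 0.48 and a range of 0.27 to 0.64, and 5 were DEGs. Of 44 DNA replication genes, 40 were called higher and 0 lower, with a median of 0.41. Cdc20, an activator of the anaphase-promoting complex, was at 10.84, 10.80 and 10.79 in the floxed controls and at 11.48, 11.40 and 11.34 in the cKO (0.60, adjusted p = 1.63e-04 by limma). Ccnb2, a mitotic cyclin, Plk1, a mitotic kinase, and Kif20a, a kinesin of cytokinesis, rose by 0.61, 0.57 and 0.57. In replication, Rrm2, a subunit of ribonucleotide reductase, rose by 0.64, Chaf1a, a chaperone of new histones, by 0.48, and the helicase parts Cdc45 and Mcm4 by 0.47 and 0.40. Of 14 D cyclins, Myc genes, Cdks and their inhibitors, 4 were called higher, among them Ccnd2 (0.50, adjusted p = 5.87e-04) and Ccnd3 (0.36, adjusted p = 0.00266), and 1 lower (0 without floxed control replicate 1 or 3).

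The promoters of the mitosis genes often held a short sequence in common. In RefSeq windows of 300 bases on GRCm38.p6, from 250 bases before to 50 after the annotated start, the CHR element of cell cycle genes (TTTGAA, either strand) was present in 24 of 31 mitosis genes with a window (77.4%), in 4 of 35 replication genes (11.4%) and in 14.2% of the 11023 tested genes with a window. The CCAAT box (CCAAT, either strand) was in 77.4%, 62.9% and 42.8% in turn. Neither motif contains the other. The windows of Cdc20 and Plk1 are shown because both genes were among the 4 of the list with the smallest p, with the CHR element in capitals.
Cdc20, chr4:118437294-118437593 (minus strand): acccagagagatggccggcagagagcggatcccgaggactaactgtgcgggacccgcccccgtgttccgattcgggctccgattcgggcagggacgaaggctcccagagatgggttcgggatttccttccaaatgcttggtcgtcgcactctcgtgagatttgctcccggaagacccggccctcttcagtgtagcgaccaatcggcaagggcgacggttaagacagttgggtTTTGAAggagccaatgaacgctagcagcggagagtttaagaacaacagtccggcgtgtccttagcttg
Plk1, chr7:122159185-122159484 (plus strand): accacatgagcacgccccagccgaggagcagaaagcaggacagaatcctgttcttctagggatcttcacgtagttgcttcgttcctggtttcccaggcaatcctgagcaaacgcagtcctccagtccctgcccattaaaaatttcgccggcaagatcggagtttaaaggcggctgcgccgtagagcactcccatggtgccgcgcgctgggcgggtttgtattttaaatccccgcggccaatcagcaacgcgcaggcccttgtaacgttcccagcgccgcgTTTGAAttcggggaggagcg
Both hold the element once, close to the annotated start. A match of letters is a description of the window and not a measured binding site.

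Neural progenitor genes were partly higher. Of 18 tested, 10 were called higher and 0 lower, with a median of 0.27. Hmga2, a chromatin protein of young progenitors, was at 9.89, 9.91 and 9.88 in the floxed controls and at 10.91, 10.74 and 10.56 in the cKO (0.85, adjusted p = 2.25e-04 by limma), and its relative Hmga1 rose by 0.71. Nes, the intermediate filament of neuroepithelial cells, rose by 0.50 and the transcription factor Sox1 by 0.44 (adjusted p = 7.83e-04 and 6.60e-04). Among single genes with the smallest p, Fam181b, a nuclear gene of the neural tube, was at 10.56, 10.54 and 10.62 in the floxed controls and at 11.44, 11.38 and 11.43 in the cKO (0.84, adjusted p = 1.07e-04). Pdlim3, an actin-associated protein, rose by 1.04, Fignl2 by 0.77 and Abcc4, an exporter of organic anions and cyclic nucleotides, by 0.64 (adjusted p = 1.27e-04, 1.56e-04 and 1.59e-04 by limma).

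Genes of growth rose with small and even steps. Of 74 cytosolic ribosomal protein genes, 68 were called higher and 0 lower, with a median of 0.28, and in fits with 1 library left out the count was 42 to 57, lowest without cKO replicate 1 and at 44 to 45 without floxed control replicate 1 or 3 or cKO replicate 3. Rpl28 was at 13.07, 13.08 and 13.08 in the floxed controls and at 13.42, 13.36 and 13.38 in the cKO (0.31, adjusted p = 6.73e-04 by limma). Of 35 ribosome biogenesis genes, 23 were called higher (14 without cKO replicate 1) and 0 lower, with Rrs1 at 0.32 (adjusted p = 8.00e-04). Of 78 mitochondrial ribosomal protein genes 34 were called higher and 0 lower, with 10 to 20 in the fits that left out any 1 of the 6 libraries, and of 78 nuclear genes of oxidative phosphorylation 7 were called higher and 0 lower (3 without floxed control replicate 1 or cKO replicate 3 and 4 without floxed control replicate 3 or cKO replicate 1), a share below that over all genes. The oxidative phosphorylation genes changed little but mostly upward, with a median of 0.065 and 70 of 78 positive. In 48 of them all cKO libraries lay above the floxed controls, against 29.9% of all genes, and in 1 all lay below.

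Glycolysis genes had larger changes than those of oxidative phosphorylation. Of 20 genes, 14 were called higher and 3 lower, with a median of 0.44. Ldha (chr7:46841475-46855627), which turns pyruvate into lactate, was at 12.97, 13.01 and 12.97 in the floxed controls and at 13.97, 13.86 and 13.76 in the cKO, with no library of one group near the other (0.88, standard error 0.051, adjusted p = 3.17e-05 by limma). Slc16a3, an exporter of lactate, was at 8.62, 8.71 and 8.44 in the floxed controls and at 9.89, 9.98 and 9.72 in the cKO (1.27, adjusted p = 2.59e-04). The glucose transporters Slc2a1 and Slc2a3 rose by 0.60 and 0.72, the first enzyme of the pathway, Hk2, by 0.67, and Pgk1, Pgam1 and Tpi1, enzymes of its later steps, by 0.48, 0.46 and 0.47. Pfkp, the platelet-type phosphofructokinase, and Eno2, the neuronal enolase, fell by 0.61 and 0.47 (adjusted p = 0.00164 and 0.00786 by limma). With the mean of the surface ectoderm genes as a covariate, the median of the list was 0.087, 6 genes were called higher and 2 lower, and Slc2a1 and Slc2a3 had log2 fold changes of -0.11 and -0.091. This covariate differs between the groups, and its part in the difference was not tested.

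Among 20 hypoxia-inducible genes outside glycolysis, 11 were called higher (7 without floxed control replicate 3 and 6 without cKO replicate 3) and 1 lower (in none but the fit without floxed control replicate 1 among those with a library left out), with a median of 0.16. Pdk1, a kinase that inhibits pyruvate dehydrogenase, was at 9.97, 10.11 and 9.92 in the floxed controls and at 10.65, 10.66 and 10.57 in the cKO (0.63, adjusted p = 3.35e-04 by limma). Egln3, an oxygen sensor, and Bnip3, a mitophagy receptor, rose by 0.34 and 0.28.

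The core of the hypoxia response element (ACGTG, either strand, also part of the CACGTG E-box) was in the windows of 12 of 19 glycolysis genes (63.2%), of 10 of 16 hypoxia-inducible genes (62.5%) and of 28.5% of the tested genes with a window. Among glycolysis genes called higher it was in 9 of 13, and among the others in 3 of 6. The core was also in 42.9% of the replication genes with a window, and in 17.3% of the higher and 25.6% of the lower DEGs. The windows of Ldha and Slc16a3 are shown for the enzyme and the exporter of lactate, with matches in capitals. The end of the Ldha window was not found in a GENCODE transcript of the gene, while that of the Slc16a3 window was.
Ldha, chr7:46845554-46845853 (plus strand): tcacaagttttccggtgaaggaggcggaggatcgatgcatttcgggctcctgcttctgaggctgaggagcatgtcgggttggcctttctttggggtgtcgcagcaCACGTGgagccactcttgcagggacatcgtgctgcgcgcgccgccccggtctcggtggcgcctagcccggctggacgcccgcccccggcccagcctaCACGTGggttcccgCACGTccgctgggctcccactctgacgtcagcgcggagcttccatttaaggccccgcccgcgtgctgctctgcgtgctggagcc
Slc16a3, chr11:120948817-120949116 (plus strand): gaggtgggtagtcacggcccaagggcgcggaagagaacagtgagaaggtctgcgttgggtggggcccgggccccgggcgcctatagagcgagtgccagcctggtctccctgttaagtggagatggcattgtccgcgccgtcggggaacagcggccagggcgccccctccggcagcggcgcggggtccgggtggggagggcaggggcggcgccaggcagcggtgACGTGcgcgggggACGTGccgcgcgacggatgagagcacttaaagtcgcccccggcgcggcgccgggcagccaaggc
In Ldha, 2 of the 3 stretches in capitals read the same on both strands, which makes 5 matches, and Slc16a3 holds 2. The Gli consensus (GACCACCCA, either strand) was in the window of 0 of 11 Shh readout genes and of 0 of 133 higher DEGs with a window, and of 0.227% of the tested genes with a window, so these windows say nothing of Gli.

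Neuronal genes fell together. Of 28 pan-neuronal and cytoskeleton genes, 27 were called lower and 0 higher, with a median of -0.47, and of 28 synaptic vesicle and release genes, 25 were called lower and 0 higher, with a median of -0.52. Dcx, a microtubule protein of migrating neurons, was at 14.47, 14.36 and 14.49 in the floxed controls and at 13.66, 13.94 and 13.81 in the cKO (-0.64, adjusted p = 0.00125 by limma), and Tubb3, the neuronal tubulin, fell by 0.41. Rbfox1, a splicing factor, fell by 0.81, Stmn3 and Gap43, proteins of growing neurites, by 0.48 and 0.58, and Nsg1, an endosomal protein, by 0.47. At the synapse, Unc13a, which primes vesicles, fell by 0.59 and the fusion proteins Snap25 and Vamp2 by 0.57 and 0.39 (adjusted p = 5.12e-04, 8.00e-04 and 5.80e-04 by limma). In the plot of the gene lists these members lie almost wholly to the left of 0, opposite to the cell cycle.

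**Figure D3:**
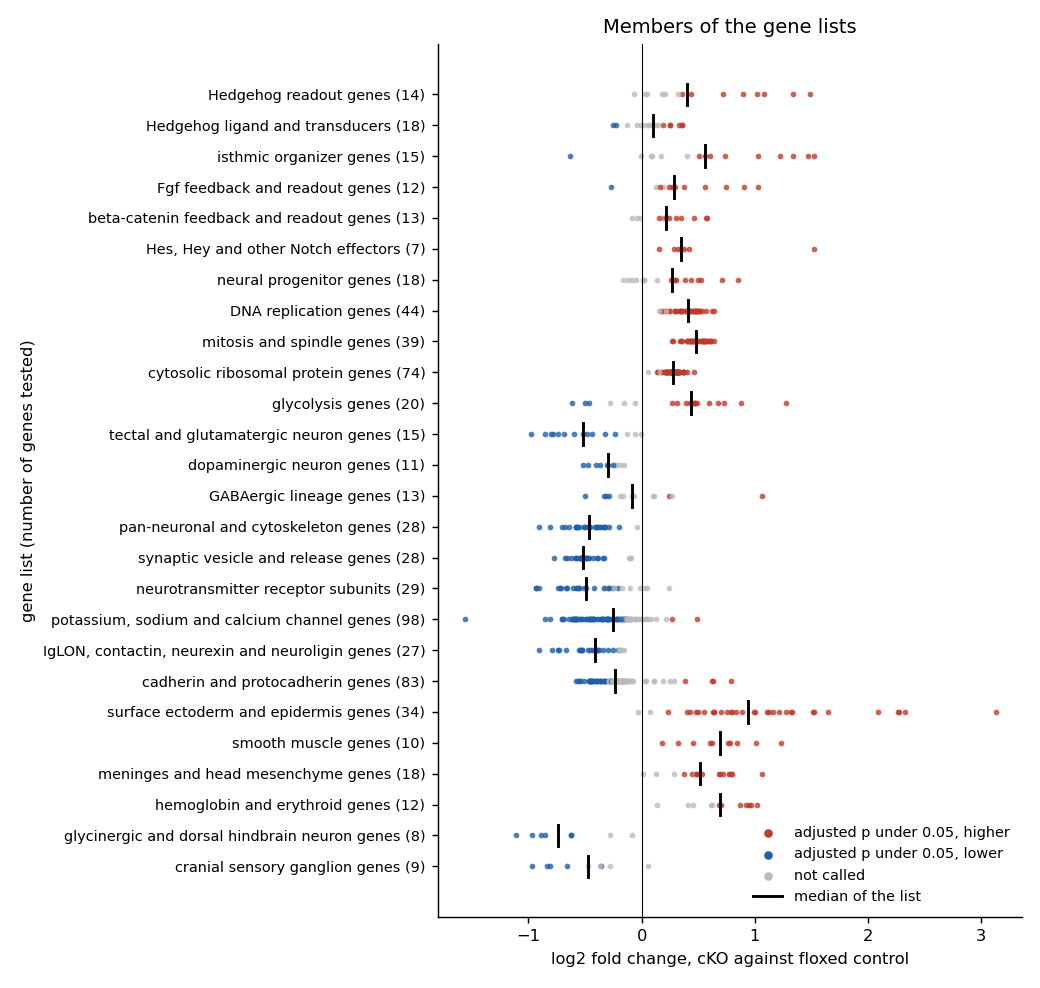
Log2 fold change of every tested member (points, x axis) of 26 gene lists (y axis, with the number of genes tested), red where called higher, blue where called lower, grey where not called, with the median of each list as a black line. Mitosis and replication genes cluster near 0.48 and 0.41, synaptic and pan-neuronal genes near -0.52 and -0.47, and surface ectoderm genes spread up to 3.13.

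Genes of neurons of the tectum, the dorsal midbrain, were mostly lower. Of 15 tectal and glutamatergic genes, 12 were called lower and 0 higher, 7 were DEGs and the median was -0.52. Lhx9 (chr1:138825186-138848577), a LIM homeobox factor of these neurons, was at 12.01, 11.70 and 11.68 in the floxed controls and at 10.96, 10.98 and 10.90 in the cKO (-0.85, adjusted p = 3.27e-04 by limma), and Pou4f2 was at 8.43, 8.07 and 8.09 in the floxed controls and at 7.19, 7.19 and 7.29 in the cKO (-0.97, adjusted p = 2.21e-04). Tfap2b, a transcription factor of tectal cells, fell by 0.80, and Cbln2, a secreted synapse organizer, by 0.78. Of 11 dopaminergic neuron genes, 7 were called lower and 0 higher, with a median of -0.30. Pitx3, a factor of these neurons, Th, the rate-limiting enzyme of dopamine synthesis, and Slc6a3, the dopamine transporter, fell by 0.52, 0.47 and 0.31 (adjusted p = 0.00210, 0.00557 and 0.00749 by limma).

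The GABAergic lineage did not move one way. Helt, a bHLH factor of GABAergic progenitors, was at 8.28, 8.15 and 7.91 in the floxed controls and at 9.24, 9.08 and 9.19 in the cKO (1.06, adjusted p = 1.96e-04 by limma), and Gata2, which acts after it, rose by 0.24, while Sox14, a factor of young GABAergic neurons, fell by 0.50 (adjusted p = 0.00525 and 0.00382). In all, 2 of 13 genes were called higher and 4 lower. Among 14 proneural and delamination genes, 4 were called higher and 4 lower (2 lower without floxed control replicate 3 or cKO replicate 2 or 3). Btg2, a gene of the last progenitor division, rose by 0.50 (adjusted p = 5.80e-04), and Neurod2 and Neurod6, which act in differentiated neurons, fell by 1.18 and 0.91 (adjusted p = 8.89e-04 and 8.00e-04).

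Genes for excitability and contact between neurons fell with the synapse. Of 29 neurotransmitter receptor subunits, 21 were called lower and 0 higher, with a median of -0.50. Gria2 (chr3:80681450-80802835), an AMPA receptor subunit, was at 12.16, 11.95 and 11.98 in the floxed controls and at 10.97, 11.10 and 11.23 in the cKO (-0.94, adjusted p = 1.56e-04 by limma), and the GABA-A subunit Gabra2 fell by 0.66. Of 98 potassium, sodium and calcium channel genes, 61 were called lower (44 to 54 with 1 library left out) and 2 higher (1 without floxed control replicate 1 or 3 or cKO replicate 1 or 2). Scn2a, a sodium channel, and Kcnh7, a potassium channel, fell by 0.59 and 0.59. Of 27 IgLON, contactin, neurexin and neuroligin genes, 23 were called lower and 0 higher, with a median of -0.41. Negr1, an IgLON, was at 11.45, 11.32 and 11.43 in the floxed controls and at 10.37, 10.48 and 10.63 in the cKO (-0.91, adjusted p = 1.56e-04), and Cntnap4 and Cntn1, adhesion proteins of axons, fell by 0.80 and 0.54.

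Axon guidance genes moved less evenly. Of 16 Slit, Robo, netrin and Unc5 genes, 7 were called lower and 2 higher (0 without floxed control replicate 1 or 3 or cKO replicate 1 or 2, and 1 without cKO replicate 3), and the netrin receptors Unc5d and Unc5c fell by 0.70 and 0.52. Of 22 Eph receptors and ephrins, 8 were called lower and 5 higher, with Epha5 and Efnb3 at -0.49 and -0.43 and Ephb4, a receptor of venous endothelium, at 0.47. Of 30 semaphorins, plexins and neuropilins, 11 were called lower, among them Sema6a and Sema4g (-0.39 and -0.35), and 2 higher (1 without floxed control replicate 3 or cKO replicate 1 or 2). Of 83 cadherins and protocadherins, 44 were called lower with 0 DEGs, and 4 higher (2 without floxed control replicate 1 or 3 or cKO replicate 1), with 3 DEGs, among them Cdh20 at 0.62. Of 11 neuropeptide genes, 2 were called higher (1 without floxed control replicate 2 or cKO replicate 2 or 3) and 5 lower (3 without cKO replicate 2). Trh, thyrotropin-releasing hormone, was at 5.59, 5.65 and 5.67 in the floxed controls and at 6.50, 6.88 and 6.63 in the cKO (1.03, adjusted p = 1.63e-04 by limma), and Npy and Adcyap1 fell by 0.58 and 0.50.

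Further genes with small p values on the lower side belong to no list. Fibcd1, a chitin-binding membrane protein, was at 9.21, 9.12 and 9.05 in the floxed controls and at 8.09, 8.05 and 8.21 in the cKO, and Pcp4, a calmodulin-binding protein of neurons, at 9.57, 9.29 and 9.44 in the floxed controls and at 8.25, 8.42 and 8.55 in the cKO. Both groups were tight, with log2 fold changes of -1.01 and -1.03 (adjusted p = 1.27e-04 and 1.59e-04 by limma). Car11, Tbc1d30, Arpp21, Tmem145, Mab21l1, Tenm1 and Hook1 fell by 0.67, 0.73, 0.78, 0.70, 0.80, 0.73 and 0.63 in turn. By size of fold, Neurod2 at -1.18, Slc4a10, a bicarbonate transporter, at -1.12 and Npnt, a matrix protein, at -0.98 came high among the genes that fell, after Kcne2, which is described with the choroid plexus.

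Several cell types that surround or border the midbrain also differed in their markers. Meninges and head mesenchyme genes were higher, with 13 of 18 called (8 without any 1 of the cKO libraries), 0 lower and a median of 0.52. Lum, a matrix protein, was at 11.05, 11.62 and 10.99 in the floxed controls and at 11.93, 11.97 and 11.93 in the cKO (0.72, adjusted p = 0.00438 by limma), Alx4, a homeobox factor of the cranial mesenchyme, rose by 0.79, and Col3a1, a fibrillar collagen, was at 13.63, 14.11 and 13.47 in the floxed controls and at 14.56, 14.55 and 14.42 in the cKO (0.77, adjusted p = 0.00832). Of 39 collagen genes 14 were called higher, with 6 without floxed control replicate 3, 7 without cKO replicate 1 and 8 without floxed control replicate 1 or cKO replicate 2, and 1 lower (0 without floxed control replicate 2 or cKO replicate 1 or 2). The chemokine Cxcl14 was at 10.34, 10.23 and 9.29 in the floxed controls and at 11.55, 11.45 and 11.53 in the cKO, where floxed control replicate 3 stood below the others (1.56, adjusted p = 0.00218, and 1.23 without that library). The summed mesenchyme list made up 0.121% to 0.219% of the floxed control libraries and 0.251% to 0.264% of the cKO libraries.

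Smooth muscle genes, a list also drawn up after leading genes had been seen, were called higher in 10 of 10 (6 without cKO replicate 1), with a median of 0.69. Acta2, smooth muscle actin, was at 10.53, 10.71 and 9.15 in the floxed controls and at 11.61, 11.21 and 11.27 in the cKO. Its log2 fold change, 1.23 (adjusted p = 0.0191 by limma), was 0.74 without floxed control replicate 3 and did not pass without cKO replicate 1 (1.10, adjusted p = 0.0710). Tagln, Tpm2 and Mylk, proteins of the contractile apparatus, rose by 1.01, 0.78 and 0.60 (adjusted p = 0.00271, 0.00312 and 0.00106).

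Blood was uneven between libraries. The summed erythroid list made up 0.567%, 0.968% and 0.689% of the floxed control libraries and 1.52%, 0.877% and 1.68% of the cKO libraries, so cKO replicate 2 lay within the range of the floxed controls. Of 12 genes 7 were called higher, all of them DEGs with a median of 0.69 over the list, but 1 was called without cKO replicate 1, 2 without floxed control replicate 1, 3 without cKO replicate 3, 4 without floxed control replicate 3 and 11 without floxed control replicate 2 or cKO replicate 2. Hbb-y, an embryonic globin, was at 15.50, 16.36 and 15.95 in the floxed controls and at 17.19, 16.35 and 17.16 in the cKO (0.96, adjusted p = 0.0114 by limma, and 0.0502 without cKO replicate 1), with overlapping groups. Of 15 endothelial genes 7 were called higher (3 without floxed control replicate 1 or cKO replicate 2 and 4 without floxed control replicate 3), with Egfl7 at 0.42, and of 18 microglia genes 2 were called higher, against 0 to 7 with 1 library left out (0 without floxed control replicate 1 or 3 or cKO replicate 2 or 3, 1 without cKO replicate 1, 7 without floxed control replicate 2).

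Choroid plexus genes followed 1 library as well as the groups. Ttr, the carrier of thyroid hormone and the most abundant of them, was at 11.13, 13.65 and 13.32 in the floxed controls and at 11.04, 9.67 and 10.46 in the cKO, so floxed control replicate 1 lay next to the cKO libraries (-2.32, adjusted p = 0.0503 by limma, and -3.10 with 0.0203 without that library). Kcne2, a potassium channel subunit of this epithelium, was at 7.06, 9.0 and 8.81 in the floxed controls and at 7.02, 6.45 and 6.72 in the cKO and had the largest decrease of all DEGs (-1.56, adjusted p = 0.0322), but lost its call when floxed control replicate 2 or 3 or any 1 of the cKO libraries was left out (adjusted p = 0.106, 0.113, 0.0592, 0.0944 and 0.0751 in turn). Htr2c, a serotonin receptor of the plexus, was at 6.80, 8.13 and 7.97 in the floxed controls and at 6.59, 6.55 and 6.31 in the cKO (-1.15, adjusted p = 0.0170), and lost its call when floxed control replicate 2 or 3 or cKO replicate 3 was left out (adjusted p = 0.0571, 0.0686 and 0.0560). Trpm3, an ion channel, was at 8.79, 9.84 and 9.58 in the floxed controls and at 8.58, 8.21 and 8.27 in the cKO (-1.05, adjusted p = 0.00787). Clic6, a chloride channel protein, did not pass, at -1.36 (-1.95 with an adjusted p of 0.00819 without floxed control replicate 1). Both Ttr and Clic6 were close to the threshold and passed in the fit of the 6 libraries compared alone (adjusted p = 0.0168 and 0.0311), and, at 0.0403 to 0.0498, with the filter at 5 CPM, with libraries centred on their medians, after quantile normalization and with GC content and length regressed out. Of the 8 genes tested in the choroid plexus list, 0 were called higher and 2 lower. The lower calls numbered 6 without floxed control replicate 1 and 0 without any 1 of the other 5 libraries. Htr2c and Trpm3 are not in that list.

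Several markers of tissue behind the midbrain were lower. Of 7 hindbrain identity genes, 4 were called lower and 0 higher, with a median of -0.79, and of 8 genes of glycinergic and dorsal hindbrain neurons, a list drawn up after the values were seen, 6 were called lower. Lbx1, a homeobox factor of dorsal hindbrain neurons, was at 7.08, 7.01 and 7.47 in the floxed controls and at 6.15, 6.04 and 6.06 in the cKO (-1.11, adjusted p = 0.00411 by limma), Slc6a5, the glycine transporter, fell by 0.89 and Skor2, a corepressor, by 0.97. Hoxa2 was at 6.48, 6.50 and 6.88 in the floxed controls and at 5.82, 5.80 and 5.68 in the cKO (-0.85, adjusted p = 0.00273) and Hoxb2 at 6.16, 6.65 and 7.25 in the floxed controls and at 5.85, 5.71 and 5.83 in the cKO (-0.89, adjusted p = 0.0132). Of the 7 Hox genes tested, these 2 and Hoxb3 were called lower, while 1 was called higher (0 without floxed control replicate 1 or 2 or cKO replicate 1 or 3) and 3 were not called. In the hindbrain list, Hoxa3 and Gbx2, an organizer factor of the anterior hindbrain, did not pass, at 0.18 and 0.09 (adjusted p = 0.275 and 0.561), although Hoxa3 passed as higher without floxed control replicate 3 (0.32, adjusted p = 0.0460). Hoxb3 had -0.93 (adjusted p = 0.0168), which was -0.59 without floxed control replicate 3 and did not pass without cKO replicate 3 (adjusted p = 0.0529). The summed hindbrain list made up 0.00402% to 0.00551% of the floxed control libraries and 0.00352% to 0.00363% of the cKO libraries.

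Of 9 genes of cranial sensory ganglia, again listed after the values were seen, 5 were called lower. Scn9a, a sodium channel of sensory neurons, was at 8.80, 9.0 and 9.15 in the floxed controls and at 8.0, 8.26 and 8.25 in the cKO, which did not overlap (-0.81, adjusted p = 7.57e-04 by limma), and Prph, a filament of peripheral neurons, fell by 0.83 (adjusted p = 0.00448). From the front of the brain, Lhx2 fell by 0.60 (adjusted p = 7.27e-04), the 1 of 6 forebrain genes that was called.

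**Figure D4:**
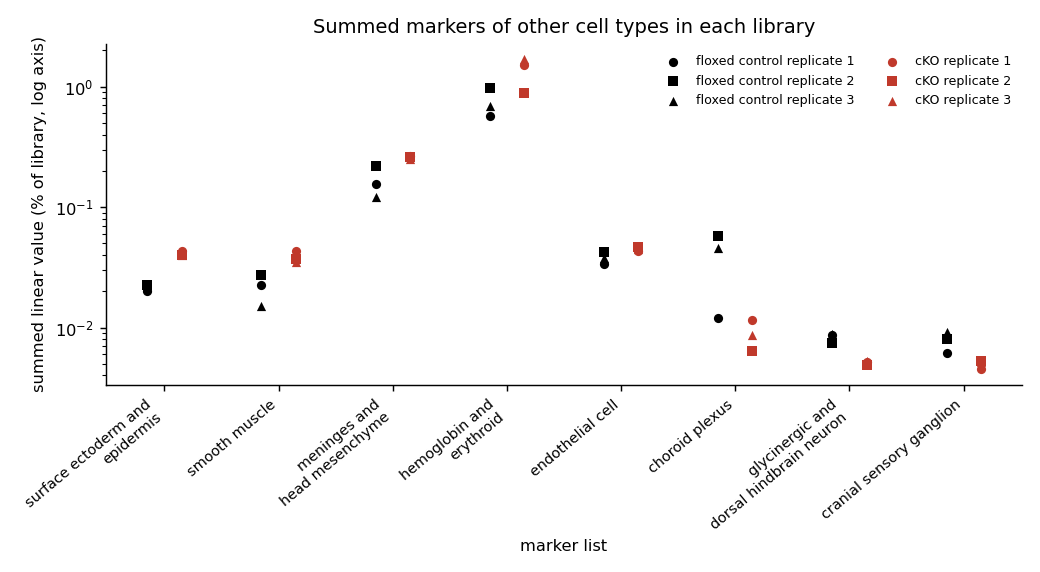
Summed linear value of 8 marker lists, in percent of each library (y axis, log scale), with floxed controls in black and cKO in red and the replicates as circles, squares and triangles. Surface ectoderm, smooth muscle and mesenchyme sums are higher in every cKO library than in every floxed control, hindbrain neuron and sensory ganglion sums are lower, the erythroid sums overlap, and the choroid plexus sum of floxed control replicate 1 lies next to those of the cKO.

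These markers moved with the groups beside the neuronal, cell cycle and signaling genes described above, and their part in those differences was not tested. Among the DEGs, 51 of the higher and 15 of the lower belong to a list of another cell type or of collagen or Hox genes, and without them 137 were higher and 207 lower. With the mean of the erythroid genes as a covariate, 90 genes were higher and 73 lower, and with that of the mesenchyme genes 122 and 89. Both covariates differ between the groups, so they share the difference with the genotype. The medians of the mitosis and synaptic genes, 0.48 and -0.52 in the main fit, kept their direction under both. Under the erythroid covariate that of the mitosis genes was 0.49 and that of the synaptic genes -0.41, and under the mesenchyme covariate they were 0.55 and -0.51. The calls thinned out unevenly. Under the erythroid covariate 25 of 39 mitosis genes, 12 of 44 replication genes, 7 of 15 isthmic genes, 5 of 14 Shh readout genes and 1 of 74 ribosomal protein genes were called higher, and 3 of 28 synaptic and 1 of 28 pan-neuronal genes lower. In that fit 517 of all 14029 genes were called in either direction, against 5380 in the main fit.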

How the data were processed

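RNA of dissected E13.5 midbrain was sequenced in 3 libraries per genotype. The sample titles do not say whether each library is 1 fetus or a pool. The processing notes of the submitters name FastQC 0.10.1, kallisto 0.46.1, DESeq2 and the build mm10, without their settings. The deposited table holds log2 values that the authors normalized between libraries, with no counts, so depth per library is unknown. The linear values of the 6 libraries sum to 26908600 to 27496600. The table has 27360 rows, of which 5764 lack a gene name, and 4840 are at 0 throughout. Genes were tested where the linear value reached 1 CPM of the library total in at least 3 libraries (log2 values of 4.73 to 4.78), which left 14029, of which 1 passed through one group alone. Limma 3.58.1 in R 4.3.3 was fitted to the log2 values of all 9 libraries with a mean per genotype and a trended prior, two-sided, with Benjamini-Hochberg adjustment over all genes tested, and every adjusted p is from this test. The p-values measure the spread between these libraries. With 3 against 3, an exact permutation test cannot go below 0.1. In simulated data of the same 14029 genes, 97.5% of 200 genes changed by 1 on the log2 scale were recovered as DEGs. Of 200 genes changed by 0.7, 91% were recovered. Noise was drawn for each gene on its own, so variation shared by many genes of a library was not simulated.

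Positions and transcript properties are from the GRCm38 annotation (GENCODE), matched by symbol for 13901 genes, and promoter windows are from RefSeq. The members, the 61 gene lists and the tests were chosen with earlier results of these data known, and 5 further lists (surface ectoderm, smooth muscle, sensory ganglion, skeletal muscle, dorsal hindbrain neurons) and the marker covariates other than the erythroid one were added after seeing the values. The genes named are the 15 DEGs in each direction with the smallest p among those whose groups do not overlap, the 10 in each direction with the largest fold, the 4 with the smallest p of each list, and members of the patterning and signaling lists. Trp63, Otx2, Slc16a3, Hk2, Slc2a1, Slc2a3, Pfkp, Eno2, Dcx, Tubb3 and Snap25 were chosen after their values were seen. Some genes are not reported here. Alternatives changed the filter, the libraries, the normalization, the variance model, the thresholds, covariates and the correction for GC content and length.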

Additional observations from a re-analysis of the deposited data

How the results depend on the processing

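The count of 410 DEGs moved by over 1.5 times under few settings. It was 163 (90 higher, 73 lower) with the erythroid genes as a covariate, 211 (122 and 89) with the mesenchyme genes, 1077 (404 and 673) with the surface ectoderm genes, 5380 (2738 and 2642) by adjusted p alone, 54 (45 and 9) at a fold change over 2, and 6 (6 and 0) by limma treat against a fold change of 1.5, and with the choroid plexus genes as a covariate the higher DEGs were 283. The 0 lower genes by treat stand beside 2642 lower by adjusted p alone, and 6743 genes had an unadjusted p under 0.05. With 1 library left out, the counts were 290 to 543 in all, 157 to 277 higher and 128 to 301 lower. The deviations of same-numbered floxed control and cKO libraries correlated at -0.027, -0.00035 and 0.14, and those of differently numbered libraries at -0.16 to 0.14. With so few libraries these values cannot show whether same-numbered libraries share a litter or batch, which was not tested. With the replicate block, 410 genes were DEGs (187 higher and 223 lower), of which 409 were DEGs without it, and Foxa2, Ccnd1 and Clic6 passed (adjusted p = 0.0281, 0.0137 and 0.0403 by limma). Of 3707 log2 fold changes of named genes under alternatives, 3408 kept their direction and call. The direction turned with the surface ectoderm covariate for Boc (0.0025), Slc2a1 (-0.11), Slc2a3 (-0.091), Krt15 (-0.072), Krt7 (-0.20), Gabrp (-0.065), Dsp (-0.26), Col3a1 (-0.11), Hoxa3 (-0.22), Gbx2 (-0.42) and Kdm5d (-1.39), with the mesenchyme covariate for Gbx2 (-0.10), with the choroid plexus covariate for En1 (-0.011), Otx2 (-0.038) and Kdm5d (-0.11), with the GC and length correction for Otx2 (-0.0042), and with 1 library left out, where none of the turned values was called, for En1 (-0.016 without cKO replicate 3, up to 0.22), Otx2 (-0.017 without cKO replicate 1, up to 0.077) and Kdm5d (-0.13 without floxed control replicate 2, up to 1.06). A covariate that differs between the groups takes part of their difference by construction, and for the other settings the cause was not tested. Depth is unknown, so no counting error can be given for weak genes.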

Other observations

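The remaining gene lists showed smaller or mixed differences. Of 30 histone genes, 14 were called higher and 3 lower, with a median log2 fold change of 0.11, and of 19 p53 target and cell death genes 8 and 3. Of 11 immediate early genes, 5 were called higher and 1 lower, with 2 higher without floxed control replicate 1 or 3 or cKO replicate 1 or 3, and 3 without cKO replicate 2. Cholesterol biosynthesis genes were called higher in 6 of 23 (3 without floxed control replicate 3 or cKO replicate 1) and amino acid and serine synthesis genes in 5 of 14 (3 without floxed control replicate 3 or cKO replicate 1), with 0 lower in both. Of 6 cranial motor and cholinergic genes, 3 were called lower (1 without floxed control replicate 3 or cKO replicate 2 or 3). Of 6 pericyte genes and of 6 genes of neural crest glia and melanocytes 1 each was called higher (0 without cKO replicate 1), and of 3 skeletal muscle genes 1 was called lower. Of 9 common reference genes 2 were called higher (1 without floxed control replicate 1 or cKO replicate 1 or 2), and of 4 sex-linked genes 0 were called.

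The DEGs were spread over the range of expression. With the genes split by mean level into 4 bins of equal size, from the lowest to the highest, 61, 56, 39 and 32 were higher and 40, 85, 54 and 43 lower. Among 181 entries without a gene name that passed the filter, 0 were higher and 4 lower.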
